A study of Mus musculus with 8 samples.

Results

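Messenger RNA levels of 9 transcription factors of the macrophage lineage, Spi1, Cebpa, Cebpb, Irf4, Irf5, Irf8, Maf, Klf4 and Runx1, were followed in mouse alveolar macrophage-like cells exposed to a bacterial stimulus with or without nanoparticles. The members were the rows of the expression table carrying these 9 gene symbols, of 17518 genes listed, and all 9 had enough counts to be tested. The cells were MH-S, an established mouse alveolar macrophage line. The 8 libraries fell into 3 groups: MH-S cells that received both lipopolysaccharide, a component of Gram-negative bacteria sensed by Toll-like receptor 4, and RCMNs, nanoparticles responsive to reactive oxygen species (LPS+RCMNs, n = 3), MH-S cells that received lipopolysaccharide without particles (LPS, n = 2) and MH-S cells in phosphate-buffered saline (control, n = 3). In LPS+RCMNs the concentrations were 100 ng/mL for lipopolysaccharide and 1 µg/mL for the particles; the concentration in the LPS group and the exposure times are not given in the labels. No group received RCMNs without LPS. All cells came from a single line. Nothing in the labels states that replicates were independent cultures, so each p-value reflects variation among these libraries, possibly technical. In bulk RNA, fewer cells expressing a factor and less of its RNA per cell cannot be told apart.

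Macrophage identity is held by a small set of DNA-binding proteins. Spi1 encodes PU.1, an ETS-domain factor that opens myeloid enhancers and on which the other factors build; Runx1 acts upstream of it in blood cell formation, and the C/EBP proteins join it in granulocyte and macrophage precursors. The interferon regulatory factors IRF4 and IRF8 bind composite sites together with PU.1, whereas IRF5 acts downstream of Toll-like receptors on cytokine genes. Maf is a factor of mature, resident macrophages, and Klf4 is known for roles in monocyte differentiation and in alternative macrophage activation.

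Promoter sequences are shown for the paralogue pair Cebpa and Cebpb and for Irf8, which is known to respond to interferon. In LPS against control Cebpa was lower and Cebpb higher, but the rise of Cebpb was not held in several refits given below. RefSeq promoters (GRCm38.p6) matched 7 of the 9 members, and the 250 bases before the transcription start are printed on the gene's own strand, with position -1 as the last base. Capitals mark matches, on either strand, to TGACG in Cebpb and to TTCNNNGAA in Irf8. TGACG is a part of the cyclic AMP response element, not the full element, and TTCNNNGAA is the gamma-activated site bound by STAT proteins.
Cebpb, chr2:167688665-167688914, plus strand: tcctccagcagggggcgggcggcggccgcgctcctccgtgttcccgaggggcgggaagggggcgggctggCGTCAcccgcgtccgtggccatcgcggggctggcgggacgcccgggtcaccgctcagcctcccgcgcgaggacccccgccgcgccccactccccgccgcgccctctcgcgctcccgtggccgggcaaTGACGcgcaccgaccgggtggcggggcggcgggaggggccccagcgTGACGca
Cebpa, chr7:35119043-35119292, plus strand: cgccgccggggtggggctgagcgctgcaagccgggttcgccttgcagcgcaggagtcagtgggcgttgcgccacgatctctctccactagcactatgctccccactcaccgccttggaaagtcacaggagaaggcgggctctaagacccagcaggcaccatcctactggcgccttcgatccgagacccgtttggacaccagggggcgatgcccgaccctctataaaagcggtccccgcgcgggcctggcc
Irf8, chr8:120736108-120736357, plus strand: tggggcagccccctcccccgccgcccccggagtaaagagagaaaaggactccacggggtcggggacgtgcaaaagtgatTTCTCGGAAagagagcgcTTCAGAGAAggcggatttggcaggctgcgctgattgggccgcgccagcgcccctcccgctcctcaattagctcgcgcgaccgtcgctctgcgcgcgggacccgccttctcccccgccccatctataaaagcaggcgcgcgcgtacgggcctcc
The Cebpb window held 3 matches to TGACG, at positions -53 and -7 and, on the opposite strand, at -180, and 20.9% of the 32544 RefSeq promoter windows of 300 bases (250 before and 50 after the start) held at least 1. The Irf8 window printed held 2 matches to TTCNNNGAA, at -171 and -153, a motif found in 8.33% of all windows. The window of a second Irf8 start, at 120738639, held none, with 54.0% G or C. Neither motif was found in the Cebpa window, nor were the C/EBP motif TTGCNNAA (10.8% of all windows), the PU.1 motif GAGGAAGT (3.11%) or the interferon-response core GAAANNGAA (8.53%) found there. The bases before the start were 81.6% G or C for Cebpb, 66.4% for Cebpa and 67.2% for the Irf8 window printed, against a median of 52.4% over all windows. At the start of Runx1 at position 92697329 of chromosome 16 there were 2 matches to the ETS-IRF composite GGAANNGAA (8.22% of windows), at -55 and, on the opposite strand, at -15. The window of its other start, at 92826074, held 2 matches to the RUNX motif TGTGGT (16.7% of windows) on the opposite strand, at positions 29 and 37 after the start. A match is a run of letters and not evidence of binding, and overlaps between motifs were not removed.

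Each library held between 18.6 and 21.2 M (mega) counts in total. Counts per M of scaled library size (CPM) are used to compare libraries, and the deposited FPKM (fragments per kb of gene and M reads) to compare genes. A library with no count for a gene could still hold up to 0.13 to 0.182 CPM of it (3 counts, counting error only). Features of the libraries that touch every result below were measured first. A pair of libraries differed most from their fellow replicates, LPS+RCMNs replicate 2 (chi-square per degree of freedom of 45.1 and 37.5) and control replicate 1 (50 and 47), termed here the libraries that stood apart. The remaining replicate pairs gave 2.91 in LPS+RCMNs, 13.4 in LPS and 1.96 in control. Fold changes also followed gene length. In LPS versus control the median log2 fold change was 1.25 for the shortest and -1.0 for the longest length band of 1191 tested genes. For LPS+RCMNs versus LPS it was -1.19 and 0.94, and for LPS+RCMNs versus control 0.0 and -0.06. Of the macrophage markers, all 10 of 10 averaged over 1 CPM, with sums of 6571.8 to 8157.4 CPM in LPS+RCMNs, 6107.2 to 7180.4 CPM in LPS and 4594.0 to 5667.1 CPM in control. Of 9 alveolar macrophage markers in the table only Fabp4 and Itgax averaged over 1 CPM over all libraries, and the sums were 69.6 to 104.3 CPM in LPS+RCMNs, 103.1 to 108.2 CPM in LPS and 18.7 to 27.3 CPM in control. Most of the difference from control was Fabp4, which averaged 63.8, 93.8 and 12.5 CPM in these groups, whereas Itgax averaged 21.2, 10.6 and 10.6 CPM. Siglecf, a defining alveolar marker, averaged 0.0498, 0.0303 and 0.123 CPM in these groups, under the floor. Marco, a scavenger receptor, had 0.687 to 1.32 CPM in LPS+RCMNs, 0.363 and 0.121 CPM in LPS, and 0 to 0.139 CPM in control. Erythroid markers (9 in the table) summed to 0.86 to 34.3 CPM in LPS+RCMNs, 4357.5 to 5621.2 CPM in LPS and 1.17 to 20.9 CPM in control. Most of this was globin RNA, but Alas2, the haem synthesis enzyme of red cell precursors, had 0.392, 0.0506 and 0.577 CPM in LPS+RCMNs, 30.0 and 33.2 CPM in LPS, and 0.347, 0.186 and 0.279 CPM in control. Slc4a1, a red cell membrane gene, averaged 0.212 CPM in LPS. Neutrophil markers summed to at most 0.709, 5.33 and 0.139 CPM in these groups. Both the length trend and the erythroid RNA were features of the 2 LPS libraries and not of LPS+RCMNs, although those cells had received lipopolysaccharide too. An effect of the treatment and a difference in origin or preparation of the LPS libraries cannot be told apart, and this touches every value set against or drawn from the LPS group. The part of gene length, of the libraries that stood apart and of erythroid RNA in the results below was not tested beyond the refits given with them.

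The factors spanned a wide range of levels. By mean FPKM the order of the first 4 was Spi1, Irf5, Irf8 and Cebpb in all 3 groups. In LPS, Irf8 (30.5 and 26.0 FPKM) and Cebpb (36.6 and 18.5 FPKM) overlapped, as did Irf5 (40.1 and 36.0 FPKM) with Cebpb. In control the ranges of Irf5 (44.2 to 76.4 FPKM) and Irf8 (40.0 to 54.3 FPKM) overlapped. Spi1 averaged 137.1 ± 6.87 FPKM in LPS+RCMNs (SD, n = 3), 229.5 and 270.5 in the LPS libraries and 144.6 ± 18.2 in control (SD, n = 3), so that 3.36%, 2.32% and 3.01% of listed genes lay above it. Irf4 and Klf4 were the lowest in LPS+RCMNs, at 0.733 and 0.707 FPKM, a gap smaller than the spread of Klf4 (0.57 to 0.83 FPKM). In the middle of the order, Maf changed place. It lay at 6.42 FPKM in LPS+RCMNs, below Runx1 at 10.9, at 1.11 FPKM in LPS, below Klf4 at 1.37, and at 13.8 FPKM in control, level with Runx1 at 13.2. The control libraries of Maf ran from 10.6 to 20 FPKM and overlapped those of Runx1, at 12.2 to 13.9 FPKM, and the LPS libraries of Maf (1.02 and 1.20 FPKM) overlapped those of Klf4 (1.12 and 1.61 FPKM). Cebpa, at 4.82, 2.26 and 7.26 FPKM in LPS+RCMNs, LPS and control, lay below Cebpb in every library.

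**Figure D1:**
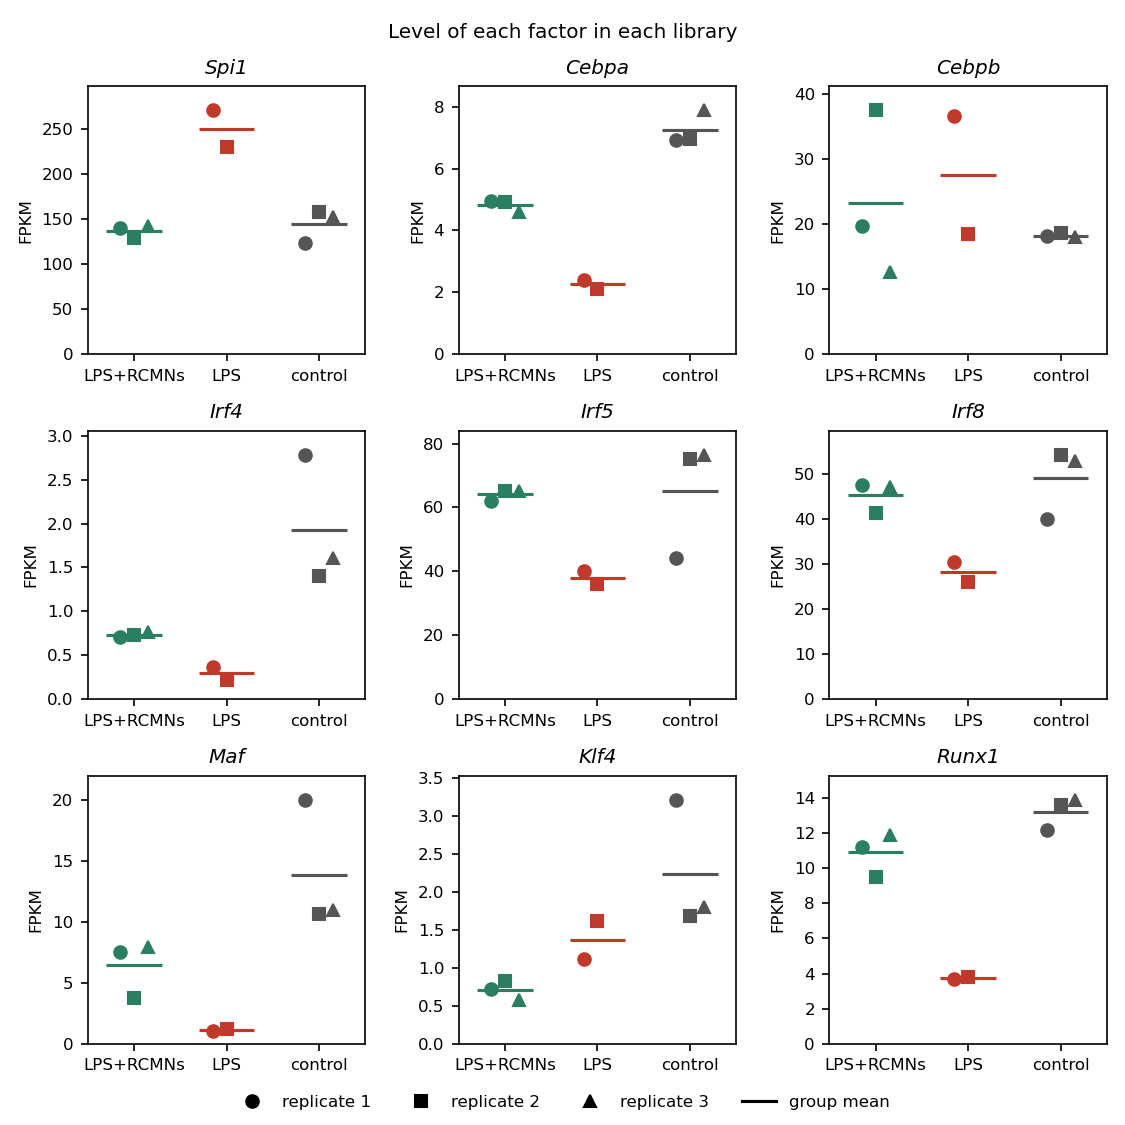
FPKM (linear axis from 0, its own scale per gene) of each factor in each library, with a marker shape per replicate and a line at the group mean. Runx1, Maf, Irf4 and Cebpa lie lowest in LPS, at means of 3.75, 1.11, 0.29 and 2.26 FPKM, and Spi1 lies highest there, at 229.5 and 270.5 FPKM. Irf5 (36.0 and 40.1 FPKM in LPS) and Irf8 (26.0 and 30.5 FPKM in LPS) also lie lowest in LPS on this scale. In CPM, LPS and control overlap for both genes. FPKM is shifted down in LPS: with limma on log2(FPKM + 1), the median gene lies at -0.33 in LPS versus control.

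In LPS versus control, 2 members were higher (Spi1 and Cebpb), 4 were lower (Maf, Irf4, Runx1 and Cebpa) and 3 were not called (Irf5, Irf8 and Klf4), at an adjusted p under 0.05 by edgeR's quasi-likelihood test. Of all 11911 genes tested, 63.4% were called, 31.4% higher and 32.1% lower, so the 6 of 9 called members were close to the share of all genes. For LPS+RCMNs versus LPS, 4 members were higher (Maf, Runx1, Irf4 and Cebpa), 2 were lower (Spi1 and Klf4) and 3 were not called, where 59.3% of all genes were called, 29.8% higher and 29.5% lower. With both agents against control (LPS+RCMNs versus control) 0 were higher, 3 were lower (Klf4, Irf4 and Cebpa) and 6 were not called, where 7.56% of all genes were called, 4.33% higher and 3.23% lower. At an unadjusted p under 0.05, 0 members were higher there by edgeR, and likewise 0 by DESeq2 and 0 by limma. The members' median log2 fold changes were -0.31, 0.33 and -0.19 in these comparisons, beside -0.04, 0.03 and -0.02 for all genes. CPM values of the groups compared did not overlap for 6, 7 and 4 of the 9 members, and for 76.1%, 74.9% and 29.8% of all genes. The comparisons share libraries: those with LPS share both LPS libraries and those with control share the controls, so opposite signs in the first 2 comparisons are not separate evidence.

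**Figure D2:**
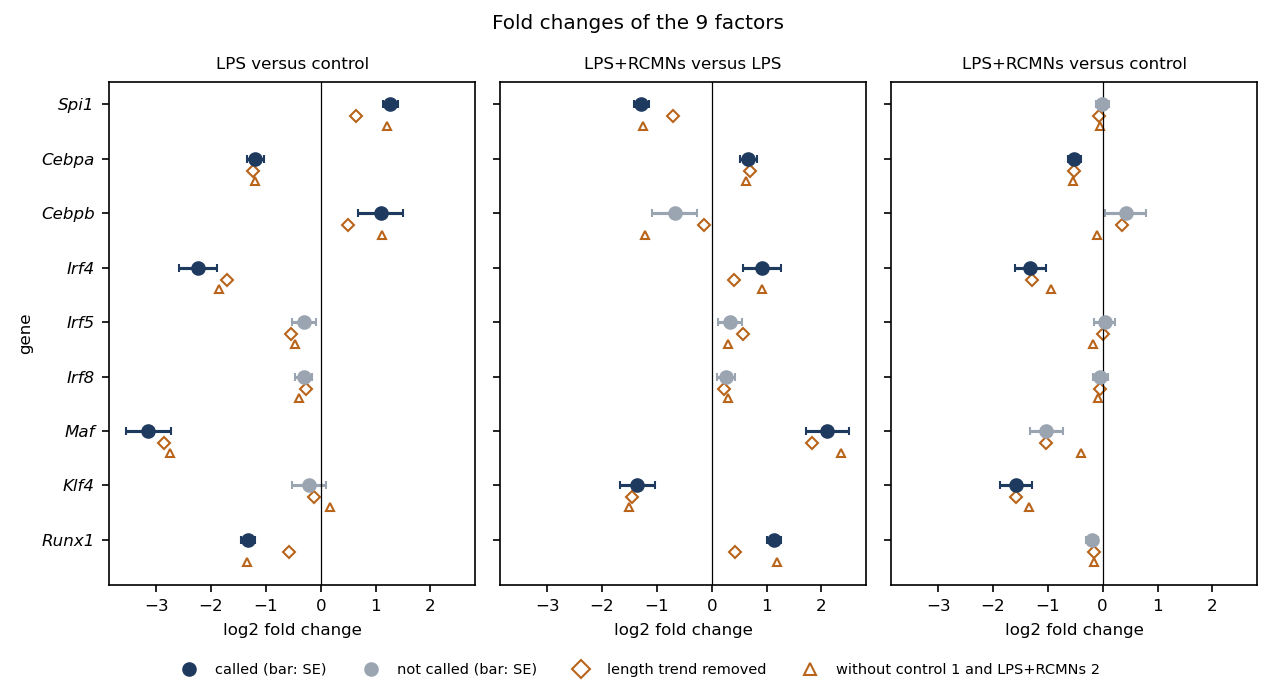
Log2 fold change of each factor in the 3 comparisons, with bars of 1 SE; open diamonds show refits with the trend on gene length removed and open triangles refits without control replicate 1 and LPS+RCMNs replicate 2. Spi1 and Runx1 move towards 0 with the length trend removed (0.64 and -0.57 in LPS versus control, against 1.27 and -1.32), whereas Cebpa stays at -1.23.

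Spi1 (gene ID 20375, chromosome 2, 91082390 to 91115756 of GRCm38, plus strand), which encodes PU.1, was higher with LPS alone and level with control when RCMNs were present. Its levels were 187.3, 171.9 and 191.5 CPM in LPS+RCMNs, 488.0 and 401.4 CPM in LPS, and 154.2, 203.5 and 195.7 CPM in control. Both LPS libraries lay above all other libraries, and the LPS+RCMNs libraries lay within the control range. The log2 fold change was 1.27 ± 0.14 (SE; 2.41-fold, adjusted p = 4.32e-05) in LPS versus control, -1.28 ± 0.14 (adjusted p = 5.18e-05) in LPS+RCMNs versus LPS and -0.01 ± 0.12 (adjusted p = 0.981) in LPS+RCMNs versus control. Spi1 is short, at 1.41 kb, and the genes of its length band had a median of 0.71 in LPS versus control. With the length trend removed the rise was 0.64, and with a surface on length and expression level removed it was 0.33 and no longer called (adjusted p = 0.0706). The fall in LPS+RCMNs versus LPS was called in all 17 alternatives, by between -1.44 and -0.42. Among 7958 other genes with a mean of at least 5 FPKM, those with the most similar profile were Snrpa, a subunit of the U1 splicing particle, and Tsr2, a ribosome assembly factor (root mean square differences of 0.09 and 0.1 in centred log2 CPM over 8 libraries).

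Runx1 (12394, chromosome 16, 92601466 to 92826149, minus strand), the DNA-binding subunit of core binding factor and a founder of blood cell formation, went the opposite way. It had 72.8, 61.4 and 77.2 CPM in LPS+RCMNs, 32.1 and 32.2 CPM in LPS, and 72.6, 84.4 and 84.9 CPM in control. The LPS libraries lay below every other library, while LPS+RCMNs and control overlapped. Runx1 fell by 1.32 ± 0.13 on the log2 scale in LPS versus control (adjusted p = 2.3e-05), rose by 1.13 ± 0.13 in LPS+RCMNs versus LPS (adjusted p = 6.73e-05) and differed by -0.19 ± 0.11 in LPS+RCMNs versus control (adjusted p = 0.322). It is the longest of the 9 at 6.81 kb, in a band of genes whose medians were -1.0 and 0.94 in the first 2 comparisons. With the length trend removed the values were -0.57 and 0.43, and with length and level removed they were -0.41 and 0.25, of which the second was not called (adjusted p = 0.0926). The ratio of Spi1 to Runx1 FPKM was 12.6, 13.6 and 11.9 in LPS+RCMNs, 72.9 and 60.6 in LPS, and 10.1, 11.6 and 11.0 in control; gene length enters this ratio. Cbfb, the partner that stabilises RUNX proteins on DNA, differed by -0.28 ± 0.11 (adjusted p = 0.0528) in LPS versus control and 0.28 ± 0.11 (adjusted p = 0.0617) in LPS+RCMNs versus LPS. Without the libraries that stood apart Cbfb was called in both, at -0.33 and 0.27. With the length trend removed it was called in neither (-0.22, adjusted p = 0.136, and 0.21, adjusted p = 0.158). Of 17 alternatives, 4 called Cbfb in the first comparison and 5 in the second. The profiles nearest to Runx1 were those of Fnbp1 and Ubr3 (0.04 and 0.06). An antisense gene, Gm26626, overlaps Runx1, and since the counting strand was not stated their reads cannot be told apart.

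The C/EBP paralogues differed. Cebpa (12606, chromosome 7, 35119293 to 35121928, plus strand), which drives granulocyte and macrophage precursors, had 12.2, 12.0 and 11.2 CPM in LPS+RCMNs, 7.99 and 6.84 CPM in LPS, and 15.8, 16.5 and 18.6 CPM in control. The 3 groups did not overlap, with LPS lowest, LPS+RCMNs between and control highest. Cebpa fell by 1.19 ± 0.15 in LPS versus control (2.28-fold, adjusted p = 0.000104) and rose by 0.67 ± 0.15 in LPS+RCMNs versus LPS (1.59-fold, adjusted p = 0.0034). It was lower by 0.52 ± 0.12 (log2 fold change -0.52, adjusted p = 0.0382) in LPS+RCMNs versus control. Its length of 2.59 kb put it among genes with a median of 0.02 in LPS versus control, and that fall was called in all 17 alternatives, by between -1.34 and -1.03, with -1.23 when the length trend was removed. The call against control in LPS+RCMNs was kept in 7 of 17 alternatives, with values between -0.55 and -0.43. Stk24 and Mbp had the most similar profiles (0.09 each). An antisense gene, Gm45091, overlaps Cebpa, with the same limit as for Runx1.

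Cebpb (12608, chromosome 2, 167688915 to 167690418, plus strand), a single-exon gene whose product drives inflammatory genes in activated macrophages, had 27.5, 51.9 and 17.5 CPM in LPS+RCMNs, 69.0 and 33.8 CPM in LPS, and 23.4, 25.0 and 24.1 CPM in control. Control was tight, whereas the LPS libraries differed 2.04-fold from each other, and LPS+RCMNs replicate 2 stood 2.31-fold above the mean of its fellows. Cebpb rose by 1.09 ± 0.41 in LPS versus control (2.13-fold, adjusted p = 0.0401), but the call was kept in 8 of 17 alternatives. It was lost without LPS replicate 1 (0.52, adjusted p = 0.392), without any 1 control library (adjusted p = 0.0634 to 0.0688), and with the length trend removed (0.50, adjusted p = 0.339). In FPKM the LPS libraries (36.6 and 18.5) overlapped control (18.1, 18.6 and 18.0). The change of -0.67 ± 0.41 in LPS+RCMNs versus LPS was not called (adjusted p = 0.18), and without LPS+RCMNs replicate 2 it was -1.22 (adjusted p = 0.0116). Against control, LPS+RCMNs gave 0.42 ± 0.37 (adjusted p = 0.554). The ratio of Cebpb to Cebpa FPKM was 3.97, 7.6 and 2.74 in LPS+RCMNs, 15.2 and 8.73 in LPS, and 2.61, 2.67 and 2.29 in control. Both LPS libraries lay above all others, LPS replicate 2 only slightly above LPS+RCMNs replicate 2. Gene length enters this ratio too, since Cebpb is 1.47 kb long, in a band with a median of 0.71 in LPS versus control. Cebpb overlaps Tmem189 on the opposite strand, a protein-coding gene also in the table, with the same limit on strand. Its nearest profiles, Hras and Ntmt1, were less close than for most members (0.31 and 0.33).

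Among the interferon regulatory factors, Irf4 was lower in both LPS-treated groups, while Irf5 and Irf8 were not called in any comparison. Irf4 (16364, chromosome 13, 30749226 to 30766976, plus strand), a partner of PU.1 known in alternative macrophage activation, had 3.19, 3.24 and 3.41 CPM in LPS+RCMNs, 2.18 and 1.27 CPM in LPS, and 11.6, 6.05 and 6.92 CPM in control. The 3 groups did not overlap, and control replicate 1 was 1.78-fold above the mean of its fellows. Irf4 fell by 2.24 ± 0.35 in LPS versus control (4.73-fold, adjusted p = 0.000439) and was lower in LPS+RCMNs versus control at a log2 fold change of -1.32 ± 0.28 (2.49-fold, adjusted p = 0.0233). Without control replicate 1 and LPS+RCMNs replicate 2 these were -1.85 and -0.95, and with the length trend removed -1.70 and -1.29. The fall in LPS was called in all 17 alternatives and that in LPS+RCMNs in 14, being lost without control replicate 3 (adjusted p = 0.0501), LPS+RCMNs replicate 1 (adjusted p = 0.0953) or LPS+RCMNs replicate 3 (adjusted p = 0.0998). The rise of 0.92 ± 0.35 in LPS+RCMNs versus LPS (adjusted p = 0.0478) was kept in 7 of 17 alternatives, and was 0.56 without LPS replicate 2 (adjusted p = 0.319) and 0.41 with the length trend removed (adjusted p = 0.398). Irf4 rests on few reads, 21 to 266 per library. One of its 2 nearest profiles, Mrc1 (0.23), encodes the mannose receptor of alternatively activated macrophages; the other was Ctdsp2 (0.18).

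Irf5 (27056, chromosome 6, 29526625 to 29541871, plus strand), the member that acts downstream of Toll-like receptors, had 119.8, 126.8 and 127.2 CPM in LPS+RCMNs, 105.5 and 92.2 CPM in LPS, and 80.6, 140.7 and 143.2 CPM in control. Control replicate 1 lay below both LPS libraries, and the other control libraries lay above them. The log2 fold changes were -0.30 ± 0.22 in LPS versus control (adjusted p = 0.256), 0.33 ± 0.22 in LPS+RCMNs versus LPS (adjusted p = 0.21) and 0.04 ± 0.19 in LPS+RCMNs versus control (adjusted p = 0.94). Without control replicate 1, LPS versus control was -0.47 and called (adjusted p = 0.00237), and with length and level removed it was -0.75 (adjusted p = 0.0182). With the length trend alone removed it was -0.55 and not called (adjusted p = 0.0611), and 4 of 17 alternatives called it. The LPS+RCMNs libraries all lay above the LPS libraries, a difference called in 5 of 17 alternatives. The gene overlaps Tnpo3 on the opposite strand. Irf8 (15900, chromosome 8, 120736358 to 120756694, plus strand), the lineage partner of PU.1 in monocytes and dendritic cells, had 126.5, 109.5 and 125.2 CPM in LPS+RCMNs, 109.6 and 90.8 CPM in LPS, and 98.8, 139.1 and 134.8 CPM in control. Irf8 and Irf5 had the smallest root mean square difference of all pairs of members (0.14). This measure is small for any pair of profiles that vary little, and neither gene was called in any comparison. The log2 fold changes of Irf8 were -0.31 ± 0.16 in LPS versus control (adjusted p = 0.116), 0.26 ± 0.16 in LPS+RCMNs versus LPS (adjusted p = 0.178) and -0.04 ± 0.14 in LPS+RCMNs versus control (adjusted p = 0.891). Without control replicate 1 the first was -0.40 and called (adjusted p = 0.0165). With the length trend removed it was -0.26 and not called (adjusted p = 0.19), and 4 of 17 alternatives called it. Gm20388, a protein-coding gene on the same strand, overlaps Irf8, so strand could not tell their reads apart. The nearest profiles outside the members were Neurl4 and Cdk17 for Irf5 (0.1 and 0.11) and Ubap2l and Sh3kbp1 for Irf8 (0.05 and 0.06). The ratio of Irf8 to Irf4 FPKM was 67.0, 56.8 and 62.1 in LPS+RCMNs, 84.8 and 118.3 in LPS, and 14.4, 38.8 and 32.8 in control, so all 5 LPS-treated libraries lay above the 3 controls. Here too gene length enters. Irf4 is 4.72 kb long, in a band with medians of -0.72 in LPS versus control and -0.06 in LPS+RCMNs versus control. Irf8 is 2.8 kb long, in a band with medians of 0.02 and -0.02.

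Maf (17132, chromosome 8, 115682942 to 115707794, minus strand), which encodes c-Maf, a factor of resident and interleukin-10 producing macrophages, showed the largest fall of the 9 in LPS versus control. It had 25.7, 12.8 and 27.1 CPM in LPS+RCMNs, 4.72 and 5.39 CPM in LPS, and 63.3, 34.8 and 35.9 CPM in control. The 3 groups did not overlap, with LPS+RCMNs between LPS and control. Maf fell by 3.14 ± 0.41 in LPS versus control (8.82-fold, adjusted p = 0.000139) and rose by 2.11 ± 0.40 in LPS+RCMNs versus LPS (4.32-fold, adjusted p = 0.00146). Both were called in all 17 alternatives, with ranges of -3.25 to -2.71 and 1.74 to 2.36. Against control, LPS+RCMNs gave -1.03 ± 0.30, not called (adjusted p = 0.0781). Maf deviated in both libraries that stood apart, at 1.79-fold the mean of its fellows in control replicate 1 and 0.485-fold in LPS+RCMNs replicate 2. Without both, the difference was -0.39 and called (adjusted p = 0.0062). Dscam (0.24), a cell adhesion receptor, and St8sia4 (0.28), a sialyltransferase, had the nearest profiles. An antisense gene, Gm15655, overlaps Maf.

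Klf4 (16600, chromosome 4, 55527143 to 55532466, minus strand), a zinc finger factor of monocyte differentiation, was lowest in LPS+RCMNs. It had 2.06, 2.33 and 1.63 CPM in LPS+RCMNs, 4.30 and 5.99 CPM in LPS, and 8.49, 4.61 and 4.92 CPM in control. The LPS+RCMNs libraries lay below every other library, while LPS and control overlapped. Klf4 was lower by a log2 fold change of -1.36 ± 0.32 in LPS+RCMNs versus LPS (2.56-fold, adjusted p = 0.00526) and of -1.58 ± 0.29 in LPS+RCMNs versus control (2.99-fold, adjusted p = 0.0132). It differed by -0.22 ± 0.31 in LPS versus control (adjusted p = 0.545), with a range of -0.43 to 0.16 over the alternatives. With the length trend removed the first 2 values were -1.46 and -1.58, and without the libraries that stood apart -1.50 and -1.34. Each call was kept in 15 of 17 alternatives. The first was lost without LPS replicate 2 (-1.13, adjusted p = 0.0533) and in limma on FPKM (-0.47, adjusted p = 0.0673). The second was lost without LPS+RCMNs replicate 1 (-1.60, adjusted p = 0.055) or replicate 3 (-1.43, adjusted p = 0.074). Klf4 rests on 33 to 195 counts per library, and its nearest profiles among 7959 genes with a mean of at least 5 FPKM, Spata13 and Mgst3, differed by 0.41; genes at its own lower level were not searched.

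**Figure D3:**
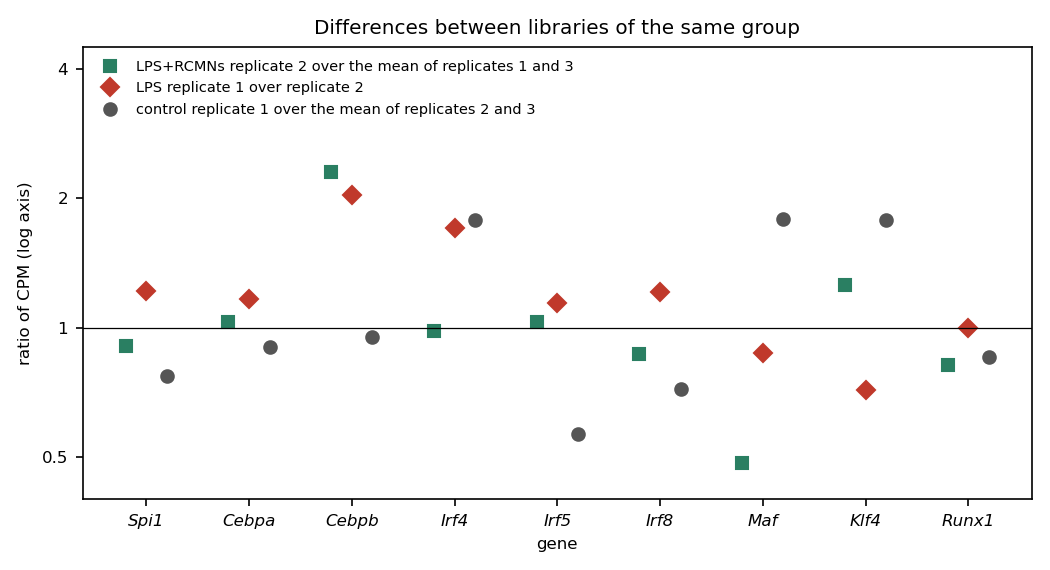
Ratios of CPM between libraries of the same group for each factor, on a log axis: LPS+RCMNs replicate 2 over the mean of replicates 1 and 3, LPS replicate 1 over replicate 2, and control replicate 1 over the mean of replicates 2 and 3. Maf, Irf4 and Klf4 stand at 1.79, 1.78 and 1.78 in control replicate 1 and Irf5 at 0.568; Cebpb stands at 2.31 in LPS+RCMNs replicate 2 and Maf at 0.485.

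Within groups, the replicates of a member differed by as much as some calls. Control replicate 1 held more Maf, Irf4 and Klf4 RNA than its fellows, at 1.79, 1.78 and 1.78 times their mean, and less Irf5 and Irf8, at 0.568 and 0.721 times. In LPS+RCMNs replicate 2, Cebpb was at 2.31 times and Maf at 0.485 times the mean of the other replicates, and the other 7 members lay between 0.819 and 1.26 times. Without both libraries, 4 members were called in LPS+RCMNs versus control (25.5% of all genes), 9 in LPS+RCMNs versus LPS (73.8%) and 8 in LPS versus control (74.9%). Over the 8 libraries Cebpa and Runx1 were the next closest pair of members (0.23), and Maf was farthest from Spi1 and Cebpb (1.77 each). These likenesses describe profiles dominated by the split between LPS and the other libraries.

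Family relatives of the factors were examined as a list of 24 genes, of which 20 were tested; Spib, Spic and Nrl, among those not tested, did not exceed 0.464 CPM in any library. In LPS versus control 4 rose, 9 fell and 7 were not called (median -0.38). For LPS+RCMNs versus LPS 7 rose, 3 fell and 10 were not called (median 0.55), and in LPS+RCMNs versus control 2 rose, 1 fell and 17 were not called (median 0.04). The called relatives thus numbered 13, 10 and 3 of 20, where 63.4%, 59.3% and 7.56% of all tested genes were called. In LPS versus control this was close to the share of all genes. Of the small MAF proteins, Maff, Mafg and Mafk were not called in any comparison.

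Cebpd, a C/EBP gene of the acute phase response, had 18.6, 24.4 and 20 CPM in LPS+RCMNs, 91.7 and 95.2 CPM in LPS, and 10.5, 10.8 and 11.1 CPM in control. The 3 groups did not overlap. It rose by 3.11 ± 0.13 in LPS versus control (adjusted p = 8.83e-07), fell by 2.15 ± 0.12 in LPS+RCMNs versus LPS (adjusted p = 2.22e-06) and rose by 0.96 ± 0.12 in LPS+RCMNs versus control (adjusted p = 0.00205). Cebpe, Cebpg and Ddit3 were not called in any comparison. Of the Krüppel-like relatives, Klf2, Klf3, Klf10 and Klf13 fell in LPS versus control, by 1.02, 1.56, 1.33 and 1.85 on the log2 scale, and these falls were also called with the length trend removed. Klf6, Klf10 and Klf13 rose in LPS+RCMNs versus LPS, by 0.60, 1.08 and 1.48, of which Klf6 was not called with the length trend removed (0.18). Klf3 was the relative that was lower in LPS+RCMNs versus control, at a log2 fold change of -0.97 ± 0.24 (adjusted p = 0.0404). That call was kept in 5 of 17 alternatives, and the CPM values were 5.0, 3.95 and 5.0 in LPS+RCMNs against 12.5, 7.68 and 7.24 in control, with control replicate 1 highest; without the libraries that stood apart it was -0.55.

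Runx2 and Runx3, the paralogues of Runx1, fell in LPS versus control, by 1.68 and 0.53, and rose in LPS+RCMNs versus LPS, by 1.30 and 0.58; with the length trend removed none of these was called. Among the interferon regulatory factors outside the 9, Irf2, a repressor of interferon genes, fell by 1.42 ± 0.10 in LPS versus control (adjusted p = 4.98e-06) and rose by 1.27 ± 0.10 in LPS+RCMNs versus LPS (adjusted p = 1.07e-05). Irf7, the amplifier of type I interferon, had 48.8, 22.6 and 50 CPM in LPS+RCMNs, 26.5 and 24.3 CPM in LPS, and 9.97, 12.9 and 12.7 CPM in control. It rose by 1.77 ± 0.27 in LPS+RCMNs versus control (adjusted p = 0.00601) and by 1.1 ± 0.30 in LPS versus control (adjusted p = 0.0101), where it was 0.70 and not called with the length trend removed. Irf1 fell by 0.83 ± 0.21 in LPS versus control (adjusted p = 0.00769). Irf3 and Irf9 rose there by 0.41 and 0.76, and Irf3 turned to -0.07 with the length trend removed.

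**Figure D4:**
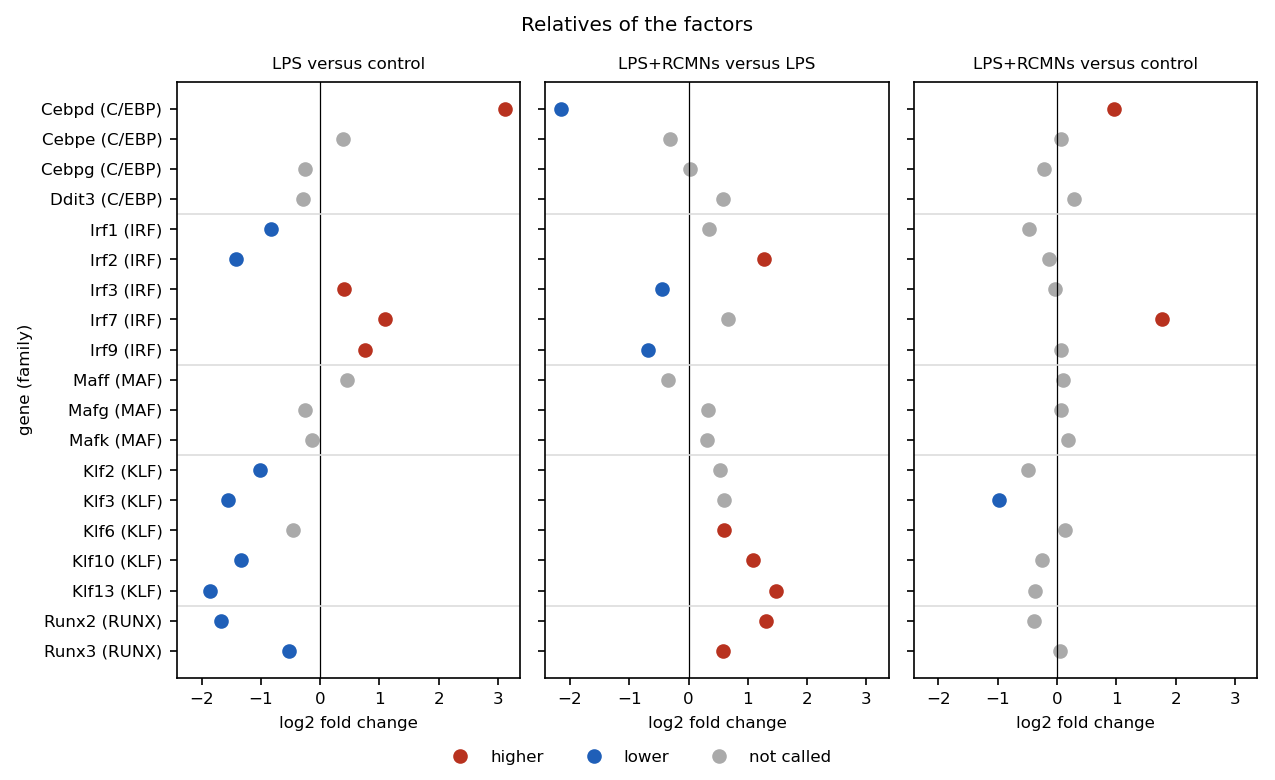
Log2 fold changes of tested family relatives in the 3 comparisons, coloured by call at an adjusted p under 0.05. Cebpd lies at 3.11 in LPS versus control, -2.15 in LPS+RCMNs versus LPS and 0.96 in LPS+RCMNs versus control, whereas Irf2 lies at -1.42, 1.27 and -0.14.

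Partners and regulators of the factors formed a list of 24 genes, of which 17 were tested; Batf, Batf2, Gata2, Gfi1, Myb, Pparg and Nr1h3 did not exceed 0.506 CPM. In LPS versus control 2 rose, 6 fell and 9 were not called (median -0.28), in LPS+RCMNs versus LPS 8 rose, 1 fell and 8 were not called (median 0.41), and in LPS+RCMNs versus control 1 rose, 1 fell and 15 were not called (median -0.02). The called partners thus numbered 8, 9 and 2 of 17, where 63.4%, 59.3% and 7.56% of all tested genes were called. Irf2bp2, a corepressor of IRF2, fell by 1.60 ± 0.15 in LPS versus control (adjusted p = 2.46e-05) and rose by 1.31 ± 0.15 in LPS+RCMNs versus LPS (adjusted p = 9.01e-05). Bhlhe40 and Bhlhe41, repressors known to sustain alveolar macrophage self-renewal, rose by 0.59 and 1.52 in LPS+RCMNs versus LPS and fell by 0.90 and 1.36 in LPS versus control. Bhlhe40 was also the partner called lower in LPS+RCMNs versus control, at -0.31 ± 0.08 (adjusted p = 0.0415), a call kept in 8 of 17 alternatives. The fall of Bhlhe41 was not called with the length trend removed (-0.68, adjusted p = 0.0799) or with length and level removed (-0.50, adjusted p = 0.161). Fli1, an ETS relative, fell by 0.89 ± 0.14 in LPS versus control (adjusted p = 0.000492). Ets2, another ETS factor, had 200.1, 200.5 and 195.8 CPM in LPS+RCMNs, 329.5 and 307.0 CPM in LPS, and 110.1, 181.8 and 171.7 CPM in control, and fell by 0.68 ± 0.18 in LPS+RCMNs versus LPS (adjusted p = 0.00957). Tfec, a macrophage member of the MiT family, rose by 2.54 ± 0.40 in LPS+RCMNs versus control (adjusted p = 0.00618) and by 2.73 ± 0.43 in LPS versus control (adjusted p = 0.000437), from low levels of 0.0929 to 0.233 CPM in control. Trib1, which targets C/EBP proteins for degradation, was not called in any comparison (0.49, -0.25 and 0.75 in LPS+RCMNs versus control, LPS+RCMNs versus LPS and LPS versus control).

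Myeloid genes known to be bound by PU.1 and its partners gave counts that depended on gene length. Of 23 tested (of 24; Ciita did not exceed 0.288 CPM), 10 rose, 7 fell and 6 were not called in LPS versus control (median 0.38), but 3 rose and 8 fell with the length trend removed (median -0.32). For LPS+RCMNs versus LPS 11 rose, 6 fell and 6 were not called (median 0.51), and 10 rose and 2 fell with the length trend removed (median 0.49). In LPS+RCMNs versus control 9 rose, 2 fell and 12 were not called (median 0.10), and no called gene changed sign in any alternative. Before any trend was removed, 17, 17 and 11 of the 23 were called in these comparisons, where 63.4%, 59.3% and 7.56% of all tested genes were called. Itgam, the integrin CD11b, rose by 0.68 ± 0.11 in LPS+RCMNs versus control (adjusted p = 0.00798) and by 1.67 ± 0.13 in LPS+RCMNs versus LPS (adjusted p = 1.05e-05), and fell by 0.99 ± 0.13 in LPS versus control (adjusted p = 0.000137). Adgre1, a surface receptor that marks mouse macrophages, and Fcgr1, a high-affinity IgG receptor, rose by 0.98 ± 0.10 (adjusted p = 0.00109) and 1.38 ± 0.18 (adjusted p = 0.00291) in LPS+RCMNs versus control. Csf1r, the receptor for macrophage colony-stimulating factor and a classic PU.1 target, had 909.6, 820.7 and 948.6 CPM in LPS+RCMNs, 614.7 and 487.1 CPM in LPS, and 709.2, 1016.4 and 1032.7 CPM in control. It fell by 0.74 ± 0.17 in LPS versus control (adjusted p = 0.00484) while Spi1 was higher there, and with the length trend removed it was -0.37 and not called. Mrc1 fell by 1.02 ± 0.12 in LPS+RCMNs versus control (adjusted p = 0.00175) and by 1.85 ± 0.14 in LPS versus control (adjusted p = 7.67e-06). Csf2rb, a subunit of the GM-CSF receptor, rose by 1.44 ± 0.13 in LPS+RCMNs versus LPS (adjusted p = 1.95e-05). Fcer1g, Cst3 and Cd68 rose in LPS versus control by 1.18, 0.63 and 0.61, and each took the opposite sign with the length trend removed (-0.32, -0.64 and -0.17).

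Cytokine genes and other activation genes known as targets of IRF5, IRF8, C/EBP proteins or Maf were a list of 16, of which 13 were tested. Of the tested genes, Nos2, Arg1, Lcn2 and Ptgs2 do not encode cytokines. In LPS versus control 12 rose and 1 fell (median 5.57), in LPS+RCMNs versus LPS 2 rose, 8 fell and 3 were not called (median -1.28), and in LPS+RCMNs versus control 11 rose, 0 fell and 2 were not called (median 2.99), with 0 lower at an unadjusted p under 0.05 by edgeR, DESeq2 or limma. Of all tested genes, 63.4%, 59.3% and 7.56% were called in these comparisons. Arg1 was the gene that fell in LPS versus control, and Lcn2 and Arg1 were those that rose in LPS+RCMNs versus LPS. Without the libraries that stood apart, 11 were higher and 1, Arg1, was lower in LPS+RCMNs versus control (-0.43, adjusted p = 0.0121). With the length trend removed, 3 rose and 6 fell in LPS+RCMNs versus LPS (median -0.79). Ccl5 fell there in the main fit (-1.13, adjusted p = 0.000148) but rose with the trend removed (0.44, adjusted p = 0.0388). Tnf, Ccl2 and Nos2 were not called in LPS+RCMNs versus LPS (0.25, -0.17 and -0.45 in the main fit). Il6 had 3.97, 4.0 and 3.65 CPM in LPS+RCMNs, 107.5 and 133.2 CPM in LPS, and 0.217, 0.605 and 0.418 CPM in control, which ranks LPS+RCMNs between the others. Cxcl10 and Il1b were also between, falling by 4.58 ± 0.15 and 5.69 ± 0.15 in LPS+RCMNs versus LPS (adjusted p = 7.8e-07 and 3.41e-07). Lcn2 was higher with RCMNs, by 0.80 ± 0.12 in LPS+RCMNs versus LPS (adjusted p = 0.000411). Il12b, a target of IRF5 and IRF8, had 0.343, 0.354 and 0.336 CPM in LPS+RCMNs, 6.17 and 6.54 CPM in LPS, and 0, 0.0465 and 0 CPM in control, and fell by 4.18 ± 0.35 in LPS+RCMNs versus LPS (adjusted p = 1.35e-05). Ccl5 rose by 4.73 ± 0.18 in LPS+RCMNs versus control (adjusted p = 3.1e-06), and Arg1, an alternative activation enzyme, fell by 2.56 ± 0.48 in LPS versus control (adjusted p = 0.00124). Il10, a known Maf target, was not tested, and neither it nor Ifnb1 exceeded 0.242 CPM.

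Factors of other blood lineages were mostly near the detection floor. Of 15 listed, 3 were tested, and the other 12, among them Gata1, Klf1, Pax5 and Foxp3, did not exceed 0.545 CPM in any library. The erythroid factors Gata1 and Klf1 reached at most 0.182 and 0.545 CPM in the LPS libraries, in which erythroid markers summed to 4357.5 to 5621.2 CPM. Nfe2, an erythroid and megakaryocyte factor, had 0.392, 0.304 and 0.240 CPM in LPS+RCMNs, 1.09 and 0.908 CPM in LPS, and 0.260, 0.0931 and 0.279 CPM in control, and rose by 2.21 ± 0.48 in LPS versus control (adjusted p = 0.0032). Gata3, a T cell factor, rose by 0.79 ± 0.14 in LPS+RCMNs versus control (adjusted p = 0.0112) and by 0.78 ± 0.16 in LPS+RCMNs versus LPS (adjusted p = 0.00246). T cell markers did not sum to more than 0.969 CPM in any library.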

How the data were processed

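RNA was sequenced from polyadenylated transcripts. For every gene and library the authors deposited a read count and FPKM (per kb of gene and M reads), per the file headers. The deposited counts are estimated counts, since 77.8% of the nonzero values lay further than 0.001 from an integer. The build is mm10 (the assembly GRCm38), per the submitters' processing notes. The sources used here name no aligner, counter, annotation or strand setting. Library codes tied columns to samples; 4 columns whose code matched no sample were left out.

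After rounding, the quasi-likelihood test of edgeR 4.0.16 (with R 4.3.3; filterByExpr, TMM) was run over all 8 libraries in 3 groups, with Benjamini-Hochberg adjustment over 11911 genes and a threshold of 0.05. The residual degrees of freedom were 5 and the common biological coefficient of variation 14.5%. CPM use TMM-scaled library sizes. SE is the size of the log2 fold change over the square root of F. Gene length is that implied by the deposited counts and FPKM. The procedure was tested on simulated data, where it called 29.9% of 1.5-fold changes in LPS versus control. In LPS+RCMNs versus LPS it called 28.4% of them, and in LPS+RCMNs versus control 46.3%. At 2-fold these shares were 91%, 91% and 98.5%. The simulated counts had the same dispersion for all genes, with no length trend and no library that stood apart, so those features were not covered. Positions are from GENCODE on GRCm38, promoters from RefSeq on GRCm38.p6.

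The members and gene lists were chosen with earlier results of these data known. Named genes were all 9 members, from each list and comparison the 3 called genes of smallest p in the commoner direction and 1 in the other, 12 fixed genes and the 2 nearest profiles of each member; other genes were named after their values were seen. Some genes of these lists are counted but not reported here by name. Correlations between members had been planned, but the libraries fall into clusters, so root mean square differences are given. The 17 alternatives per comparison used just the groups being compared, a replicate block, each of 8 libraries left out, no filter, median-ratio size factors, a loess trend on length removed (span 0.4), a surface on length and level removed, both libraries that stood apart left out, limma 3.58.1 on log2(FPKM + 1) and DESeq2 1.42.0. Counts of calls were also made with a fold minimum (log2 fold change over 1 in size).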

Additional observations from a re-analysis of the deposited data

How the results depend on the processing

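Members had 486 fold changes under the alternatives and the fold minimum, which reuses the main values and can only lose a call. Of these, 407 kept their direction and their side of the threshold, 41 lost a call, 19 gained one and 19 changed sign. No called fold change changed sign. The values that changed sign were for Klf4 in LPS versus control (0.09 with length and level removed, 0.16 without both libraries that stood apart, -0.43 to 0.16 with a library left out) and, in LPS+RCMNs versus control, for Spi1 (0.01 with only the groups compared, 0.02 with no filter, -0.09 to 0.09 with a library left out), Irf5 (-0.02 with length and level removed, -0.17 without both libraries, -0.16 to 0.19), Irf8 (-0.16 to 0.07) and Cebpb (-0.10 without both libraries, -0.08 to 0.74). The cause was not tested.

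All genes called numbered 7554 in LPS versus control, 7063 in LPS+RCMNs versus LPS and 901 in LPS+RCMNs versus control. With a fold minimum they were 3619, 3162 and 314. In LPS+RCMNs versus LPS, removing length and level left 4649. In LPS+RCMNs versus control there were 3017 without both libraries that stood apart and 1379 with DESeq2. Leaving out a library gave 6002 to 7930, 5613 to 7685 and 322 to 1372 genes, and 5 to 7, 4 to 7 and 0 to 3 members. With limma on FPKM the median gene lay at -0.33, 0.27 and -0.07, and 26.3%, 72.0% and 41.9% of calls were higher, against 49.5%, 50.3% and 57.3%. List counts stayed within 1.5 times in 236 of 270 cases, with the fold minimum included.

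The labels number the replicates alike, and deviations of same-numbered libraries correlated between -0.34 and 0.20. This cannot decide whether the numbers mark a pairing, because the deviations of the 2 LPS libraries mirror each other. The libraries that stood apart, control replicate 1 and LPS+RCMNs replicate 2 (correlation 0.38), also weigh heavily on the deviations of their groups. A replicate block called 454 genes in LPS+RCMNs versus control and no longer called Cebpb in LPS versus control (0.89, adjusted p = 0.125) or Cebpa in LPS+RCMNs versus control (-0.52, adjusted p = 0.112). Depth limits Irf4 and Klf4 most, at as few as 21 and 33 counts.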
